A study of Mus musculus with 2 samples.

Results

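The 8 aquaporin genes described here, Aqp1, Aqp3, Aqp4, Aqp5, Aqp7, Aqp8, Aqp9 and Aqp11, were taken by name from the 22180 mouse genes that had a probe set of their own in liver. They were chosen with their irradiated minus control differences in view, so these differences are given as a description. Of the 8 members, 7 were counted as expressed. RNA came from the liver of male C57BL/6 mice, an inbred strain, aged 9 weeks, and was hybridised to 2 Affymetrix arrays. The irradiated group had been given 6 Gy of whole-body gamma rays under anaesthesia at an age of 4 weeks, delivered at 0.81 Gy per minute, and was sampled 5 weeks afterwards. The control group had no treatment, and whether it was anaesthetised is not stated. Each group had 1 array, and the labels do not say if an RNA is that of 1 animal or of several, so no difference below has a replicate check or a p-value and the spread between animals is unknown.

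Aquaporins are membrane channels, assembled as tetramers in which each subunit has its own pore, that let water cross membranes along an osmotic gradient. The aquaglyceroporins Aqp3, Aqp7 and Aqp9 also pass glycerol and other small uncharged solutes, and several family members pass hydrogen peroxide. In liver, water channels serve bile formation in hepatocytes and bile ducts, and Aqp9 brings glycerol from the blood into hepatocytes, where it feeds glucose synthesis.

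The values are log2 RMA values, in which a difference of 1 is 2-fold. Genes with at least 1 value at or above 6.06 were called expressed. This limit is the median over every probe set of both arrays, is called the floor below, and is a rank and not a measured background. Probe sets bind their targets with unequal strength, so values are compared between arrays and give no order of RNA amounts between genes. The labelled tissue was checked by hepatocyte markers. All 11 that had their own probe set were expressed, but so were 13689 of all 22180 genes, so this alone does not mark liver. Alb, the albumin gene, read 13.68 on the control and 13.70 on the irradiated array, near the top of the scale at 13.87 and 13.91.

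Aqp8 was the member with the largest difference. It encodes a water channel of hepatocytes that lies in intracellular vesicles and at the bile canaliculus and has also been located in mitochondria. Its probe set read 9.57 in the control and 8.47 after irradiation. The difference of -1.10 leaves 46.5% of the control signal and is 2.15-fold lower. Aqp4, the main water channel of astrocytes in the brain, also read lower, at 7.14 on the control and 6.45 on the irradiated array. Its difference of -0.70 is 1.62-fold, and the irradiated value stood 0.39 above the floor. The other 5 expressed members differed by less than 1.5-fold, between -0.15 and 0.06. Because whole liver was measured, fewer cells of a type and less RNA per cell cannot be told apart.

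**Figure D1:**
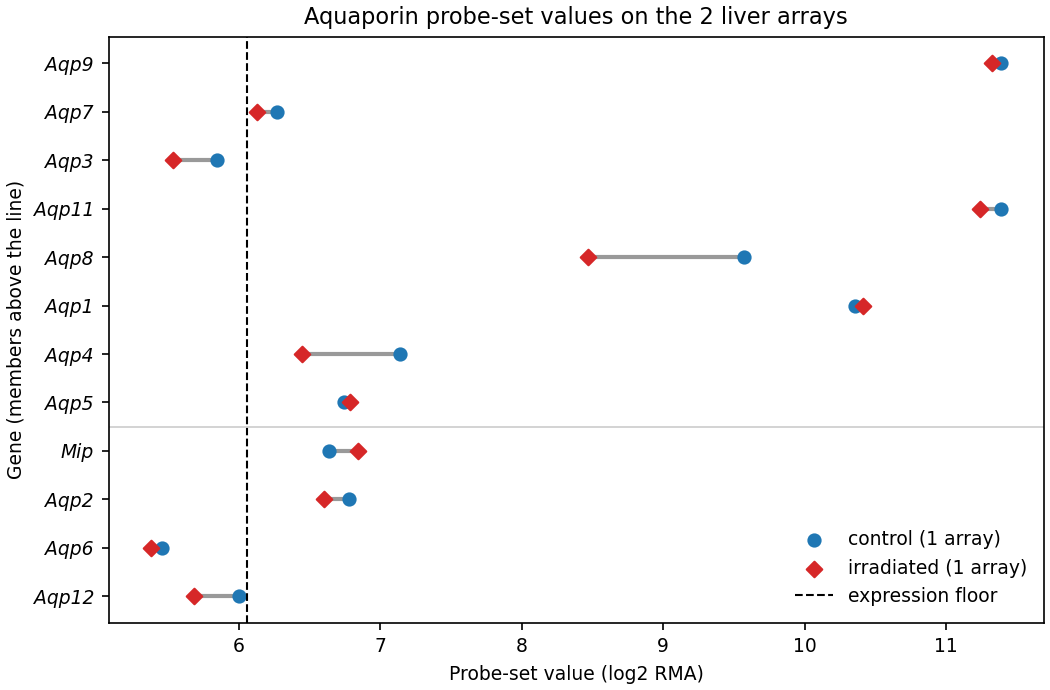
Probe-set values of 12 aquaporin family genes (horizontal axis, log2 RMA) on the control array (circles) and the irradiated array (diamonds), 1 array each, with the 8 members above the grey line and the 4 other family genes under it; the dashed line is the expression floor at 6.06. The gap is widest for Aqp8, from 9.57 to 8.47, followed by Aqp4, from 7.14 to 6.45, while the symbols of Aqp1, Aqp5 and Aqp9 nearly meet.

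By count, 2 of the 7 expressed members, Aqp8 and Aqp4, were at least 1.5-fold lower, where 0.650% of all 13689 expressed genes were. The count was 1, Aqp8, when 32 was added on the linear scale (Aqp4 at -0.54) or with the floor raised to the 75th percentile, under which Aqp4 lay. At 2-fold there was 1, Aqp8, against 0.183% of expressed genes. At least 1.5-fold higher were 0 of the 7 members and 1.14% of expressed genes. The members were chosen on this contrast, so nothing is read from these shares. The median difference of the 7 was -0.14, and it was -0.00 over all expressed genes. Below 0 lay 5 of the 7, and 50.3% of all expressed genes.

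The position of each member among genes with a similar mean signal describes how far its difference stood from the bulk. Among 2293 expressed genes within 0.5 log2 units of the mean of Aqp8, the central 95% of differences ran from -0.34 to 0.31, and 3 genes were as low as Aqp8 or lower. In the order of all expressed genes Aqp8 stood at rank 21 from the lowest difference. For Aqp4 the central 95% of 3708 such genes ran from -0.36 to 0.47, with 10 genes as low or lower, and its rank was 60. Aqp1, Aqp5, Aqp7, Aqp9 and Aqp11 all lay inside the corresponding central ranges. These ranges describe genes on the same pair of arrays and contain no spread between animals.

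**Figure D2:**
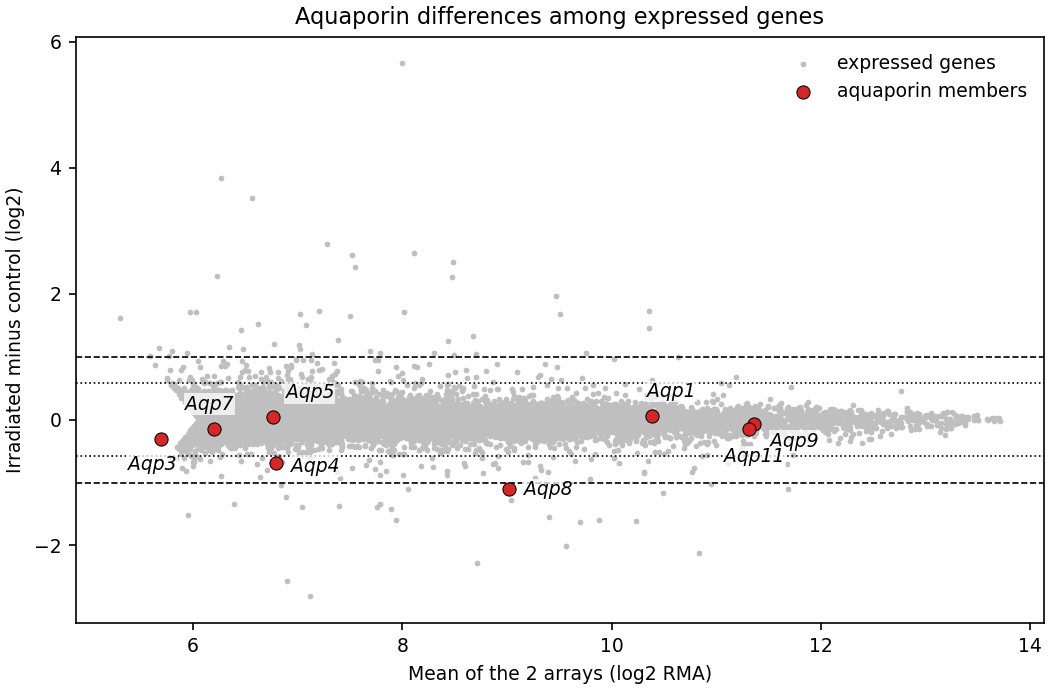
Difference of irradiated minus control (log2, vertical axis) against the mean of the 2 arrays (log2 RMA, horizontal axis) for 13689 expressed genes (grey) and the 8 aquaporins (red), of which Aqp3 did not reach the floor; dotted lines mark 1.5-fold and dashed lines 2-fold. Aqp8 lies at -1.10 beyond the 2-fold line, Aqp4 at -0.70 beyond the 1.5-fold line, and the other members near 0 or, for Aqp3, at -0.31.

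Each member was measured by 1 probe set, and no probe set annotated with several genes carried a member's symbol, so no second reading of Aqp8 or Aqp4 was at hand. How far readings of the same gene can part was seen in 463 other genes with several expressed probe sets of unequal values. The differences of their probe sets lay apart by a median of 0.18, and by 0.58 at the 95th percentile. Within the family, Mip, the water channel of the eye lens, had 2 probe sets, which differed by -0.17 and 0.20, a gap of 0.37 across 0. Such gaps describe probe sets on the same pair of arrays and hold no spread between animals, so they do not measure how far 2 livers can differ.

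Promoter sequence is shown for Aqp8, the member beyond 2-fold, and for Aqp1, Aqp9 and Aqp11, the other members that read above 7.64, the 75th percentile of all values, on both arrays, so that the letters upstream of the gene with the large difference can be set beside 3 with small differences. Promoters of 7 of the 8 members were taken by symbol from the RefSeq promoter table of build GRCm38.p6. The promoter of Aqp4 was not analysed here. The 250 bases before the transcript start are printed 5′ to 3′ on the strand of the gene, and capitals mark motif matches. The search covered both strands for TATAAA, the E-box CACGTG, the GC box GGGCGG, the promoter box CCAAT, the nuclear receptor half-site AGGTCA and the forkhead motif TGTTTAC. Aqp9 has 2 starts in the table and the first listed is shown.
Aqp8, chr7:123462044-123462293, plus strand: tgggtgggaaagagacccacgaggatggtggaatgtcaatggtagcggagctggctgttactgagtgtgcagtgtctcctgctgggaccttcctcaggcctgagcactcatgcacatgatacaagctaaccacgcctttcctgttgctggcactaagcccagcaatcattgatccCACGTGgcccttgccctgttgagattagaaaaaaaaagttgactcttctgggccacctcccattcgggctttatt
Aqp1, chr6:55336049-55336298, plus strand: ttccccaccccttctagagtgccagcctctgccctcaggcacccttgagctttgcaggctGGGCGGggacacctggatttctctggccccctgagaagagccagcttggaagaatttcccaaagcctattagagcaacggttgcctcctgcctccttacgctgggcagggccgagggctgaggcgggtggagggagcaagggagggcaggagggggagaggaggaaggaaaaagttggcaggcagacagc
Aqp9, chr9:71163290-71163539, minus strand: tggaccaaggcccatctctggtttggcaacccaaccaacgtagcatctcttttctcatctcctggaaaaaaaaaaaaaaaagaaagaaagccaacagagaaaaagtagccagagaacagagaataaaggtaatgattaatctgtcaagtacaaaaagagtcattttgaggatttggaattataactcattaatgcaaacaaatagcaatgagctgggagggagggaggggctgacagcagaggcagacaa
Aqp11, chr7:97738248-97738497, minus strand: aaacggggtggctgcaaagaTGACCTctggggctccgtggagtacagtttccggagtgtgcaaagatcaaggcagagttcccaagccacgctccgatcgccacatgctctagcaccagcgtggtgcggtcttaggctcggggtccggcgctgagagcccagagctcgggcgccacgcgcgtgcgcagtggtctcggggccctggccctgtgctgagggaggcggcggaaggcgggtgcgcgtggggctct
In these windows Aqp8 had 1 match, the E-box CACGTG, which reads the same on both strands and begins at position -75 from the start. That motif was present in 6.02% of the 32851 promoters of the same length in the table, and among the aquaporins also upstream of Aqp5, Aqp2 and Aqp6. Aqp1 had a GC box (32.7% of all promoters) at -190, Aqp11 a nuclear receptor half-site (14.0%) at -230, and neither listed start of Aqp9 had any of the 6 motifs. No printed window held more than 1 match, so no 2 could overlap. The window of Aqp8 held 5 CpG dinucleotides and 52.4% G and C, close to the medians of 6 and 52.4% over all promoters, whereas Aqp11 held 23 CpG and 67.2% and Aqp9 held 1 and 40.4%. The letters in a window say nothing of which factors were bound in these samples.

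None of the 6 nearest protein-coding genes beside Aqp8 on mouse chromosome 7 differed by 1.5-fold. Of all expressed genes, 0.650% were as much lower and 1.14% as much higher, so nothing is read from that result for 6 genes. In the RefSeq order, 3 on either side, Lcmt1, which encodes a protein methyltransferase, was next to Aqp8 and differed by 0.11, and Arhgap17, the following gene, by -0.15. Zkscan2, nearest on the other side, did not reach the floor on either array. Slc5a11, Hs3st4 and 4930571K23Rik were expressed but lay close to the floor of 6.06, at 6.11, 6.09 and 6.27 on the control array. Over the 6 genes the differences ran from -0.17, that of the unexpressed Zkscan2, to 0.11. Aqp11 lies on the same chromosome and differed by -0.15.

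Symbols of predicted genes, clones, small RNAs and pseudogenes were left out of a search for genes near Aqp8. Among the rest, the pair of values lay nearest to that of Aqp8 for Cyp3a25, Gbp11 and Spry4. Cyp3a25 is a cytochrome P450 gene, Gbp11 a guanylate-binding protein gene, and Spry4 encodes an inhibitor of receptor kinase signalling. Since both values were used to choose these genes, their lower irradiated values follow from the choice. Cyp3a25 read 9.67 on the control and 8.40 on the irradiated array, a distance of 0.12 from Aqp8 over the 2 values. Gbp11 differed by -0.77 and Spry4 by -0.69. With 2 arrays such a likeness rests on 2 numbers per gene, and since it takes in the levels of different probe sets it also moves with their affinity.

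Of the other water channels, Aqp1 is a constitutive channel of bile duct epithelium, endothelium and red blood cells. It read 10.35 in the control and 10.41 after irradiation, a difference of 0.06. Markers of the 3 cell types that carry Aqp1 did not all behave alike on the same arrays. All 7 expressed bile duct markers were above 0, beside 6646 of 13689 expressed genes, with a median of 1.12. Of the 7, 5 were at least 1.5-fold higher, where 1.14% of all expressed genes were. The 12 endothelial markers had a median of -0.01 and 8 red cell markers 0.10. Krt19, a keratin of bile duct cells, read 6.18 and 7.37. The part of these cell types in the Aqp1 signal was not tested.

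Aqp5, a channel of salivary, tear and airway glands, read 6.74 in the control and 6.78 after irradiation, a difference of 0.04. These values stood 0.69 and 0.73 above the floor. Aqp11, an intracellular channel of the endoplasmic reticulum whose loss leaves vacuoles in kidney and liver cells of mice, read 11.39 and 11.24, a difference of -0.15 or 1.11-fold. Neither gene came near 1.5-fold.

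Of the aquaglyceroporins, Aqp9 and Aqp7 were measured above the floor on both arrays and differed by less than 1.5-fold. Aqp9, the glycerol channel of the hepatocyte surface facing the blood, read 11.39 in the control and 11.32 after irradiation, a difference of -0.07 or 1.05-fold. Aqp7, which lets glycerol leave fat cells, read 6.27 and 6.13, a difference of -0.14, with the irradiated value 0.07 above the floor. Aqp3, a channel of kidney collecting duct and skin, read 5.85 and 5.54, under the floor on both arrays, so its difference of -0.31 gives no measured fold.

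The 4 aquaporin family genes outside the member list differed by between -0.32 and 0.20. Mip by its brighter probe set read 6.64 and 6.84, and Aqp2, the vasopressin-regulated channel of the kidney, 6.78 and 6.61, a difference of -0.18. Aqp6, an intracellular channel of kidney cells, and Aqp12, a channel of pancreatic acinar cells, were under the floor on both arrays, with differences of -0.08 and -0.32. None of the 4 reached 1.5-fold.

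Genes that work beside the aquaporins were read as lists, by counts and medians with no test. Over all expressed genes, 0.650% were at least 1.5-fold lower, 1.14% at least 1.5-fold higher and 50.3% below 0. The lists were chosen with earlier results known, so nothing is read from their counts. For glycerol handling, the pathway of Aqp9 and Aqp7, 16 of 22 expressed genes were below 0, with a median of -0.05. Of these, 1 was at least 1.5-fold lower, Angptl4, an inhibitor of lipoprotein lipase, at -0.80, and 0 were higher. Gpd1, the glycerol phosphate dehydrogenase that takes glycerol on towards glucose, differed by -0.13. Glycerol kinase (Gk) had no probe set of its own symbol and was not analysed here.

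Hepatocyte bile flow genes, the setting of Aqp8, centred on -0.03, the median of 17 expressed genes. Of the 17, 10 were below 0, beside 50.3% of all expressed genes. Genes at least 1.5-fold lower numbered 2, where 0.650% of all expressed genes were, and 0 were as much higher. The 2 were Nr0b2, a repressor of bile acid synthesis genes, which read 11.07 and 9.91, a difference of -1.16, and Slco1a4, an uptake transporter for organic anions, at -0.66. Abcb11, the bile salt export pump that works at the same canalicular membrane, differed by -0.16. Of the other canalicular pump genes, Abcc2 and Abcb4 differed by 0.03 and 0.09. Abcg2, Abcg5 and Abcg8 differed by -0.06, -0.22 and -0.48.

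Of 12 expressed bile duct secretion genes, a setting of Aqp1, 9 were above 0, beside 6646 of 13689 expressed genes, the median being 0.22. At least 1.5-fold higher were 3, beside 1.14% of all expressed genes, and as much lower 0, beside 0.650%. The carbonic anhydrase gene Car2 differed by 0.88 and the chloride channel gene Ano1 by 0.66. Slc9a3, a sodium-hydrogen exchanger gene, was under the floor in the control and was 1.83-fold higher against the floor. The chloride channel gene Cftr and the secretin receptor gene Sctr, which define secretory bile duct cells, were under the floor on both arrays.

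In 3 further lists no gene reached 1.5-fold in either direction. The 15 osmotic response genes had a median of 0.06, and Nfat5, the transcription factor of hypertonic stress, was at 0.15. The median of 18 hydrogen peroxide handling genes was 0.01, and the catalase gene Cat was at -0.02. Genes of regulators reported for aquaporins or for hepatocyte metabolism numbered 17, and 13 were below 0, beside 50.3% of all expressed genes. The 17 had a median of -0.09 and ran from -0.30 to 0.23. Among them Ppara, a lipid-sensing nuclear receptor gene, differed by -0.15.

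**Figure D3:**
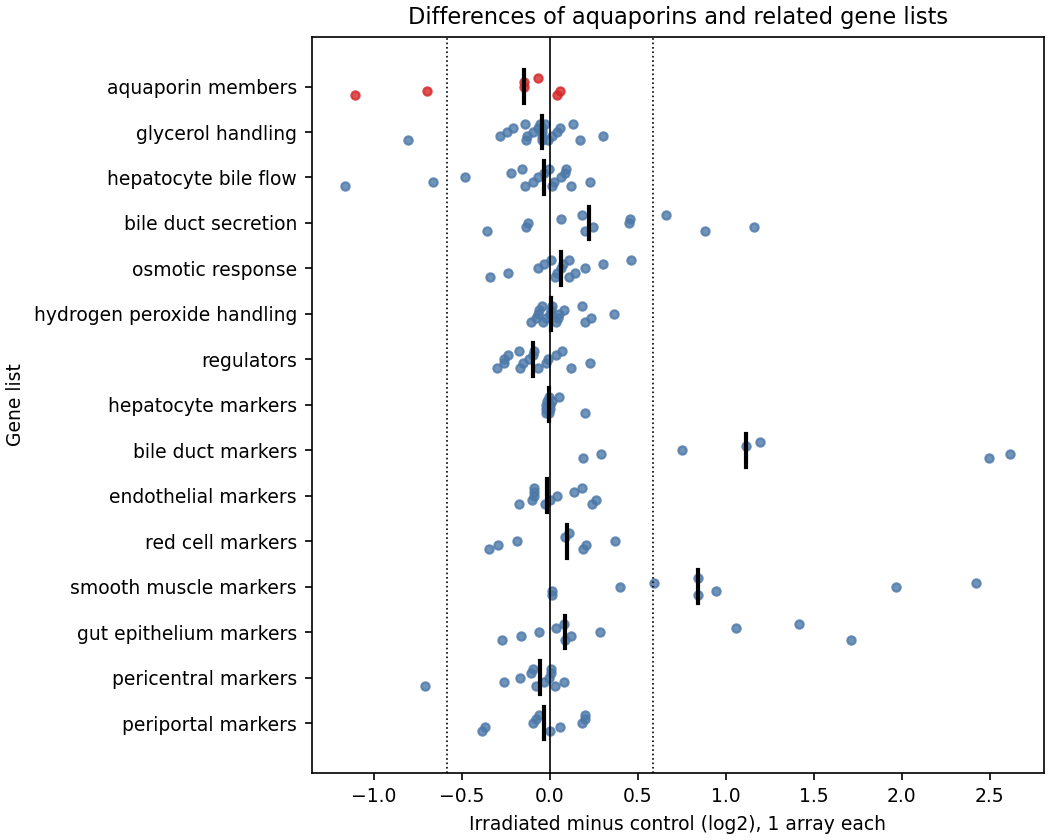
Difference of irradiated minus control (log2, horizontal axis) of each expressed gene (points) in the aquaporin members (red) and 14 related lists (blue), with a black bar at each median and dotted lines at 1.5-fold; vertical scatter within a row has no meaning. Aqp8 at -1.10 and Aqp4 at -0.70 stand left of the other members, and the bars of bile duct markers (1.12) and smooth muscle markers (0.84) stand to the right.

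Cell type markers were read on the same arrays. Signals of all genes of a list with their own probe set, expressed or not, were summed on the linear scale. They are given as log2 of the sum. The summed signal of 11 hepatocyte markers was 16.57 on both arrays, and their median difference was -0.00. The brightest of them weigh most in the sum, such as Alb at 13.68 and 13.70, near the array maxima of 13.87 and 13.91. Whether signals that high still follow RNA amount was not tested. The summed signal of 11 bile duct markers, 4 of them under the floor on both arrays, went from 9.77 to 11.16. Of the 7 expressed, Muc1 was at 2.62, Cd24a at 2.50, Krt19 at 1.20, Anxa13 at 1.12 and Epcam at 0.75. Krt7 and Sox9 differed less, by 0.29 and 0.19. The 9 expressed smooth muscle markers had a median of 0.84, and the summed signal of the list was 10.60 and 11.76. Of the 9, 6 were at least 1.5-fold higher, beside 1.14% of all expressed genes. They were led by Cnn1 at 2.42, Acta2 at 1.97, Des at 0.95 and Myl9 at 0.85. Short of 1.5-fold were Myh11 at 0.40, Smtn at 0.01 and Lmod1 at 0.01. The median of 11 gut epithelium markers was 0.09, and that list's summed signal was 11.77 and 11.93. Of the 11, 8 were above 0, beside 6646 of 13689 expressed genes, and 3 below, the lowest being Phgr1 at -0.27. Lgals4 differed by 1.06, while Slc26a3 and Car4 were under the floor in the control and 1.78-fold and 2.15-fold higher against it. Pancreatic acinar markers reached the floor in 3 of 10 genes, with a median of -0.02. Of these Ctrb1 differed by 2.65, Cela1 by -0.02 and Cel by -0.09, and the summed signal of the list was 9.08 and 10.12. The part of these markers in the lower Aqp8 and Aqp4 values was not tested.

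Other marker lists held no expressed gene past 1.5-fold, apart from Tbx3, a pericentral transcription factor gene, at -0.71. The summed signal of 12 pericentral markers was 15.40 on the control and 15.34 on the irradiated array, with a median of -0.06, and that of 10 periportal markers 15.66 and 15.62, with a median of -0.03. The endothelial list summed to 13.39 and 13.40, with Pecam1, an endothelial adhesion gene, at -0.09, and the red cell list to 10.85 and 10.81. The median of 5 expressed fat cell markers was 0.13, and that list's summed signals were 9.92 and 9.95. Adipoq, the adiponectin gene that defines these cells, was under the floor on both arrays. For 8 expressed neutrophil and macrophage markers the median was 0.20, and the whole list of 12 summed to 11.96 and 12.21. The 4 genes of that list under the floor on both arrays, S100a8, S100a9, Mpo and Elane, are all neutrophil genes.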

How the data were processed

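Liver RNA was measured on 1 control and 1 irradiated array, from 300 ng of total RNA per the labels' protocols. The authors deposited log2 values for 41345 probe sets, made with RMA in Affymetrix Expression Console 1.3.1, per the submitters' processing notes. The log base was read from the range and medians (6.05 and 6.07) of the values. RMA gives both arrays a common distribution, so a change in total RNA per cell cannot be seen. The number of arrays limits the precision.

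By GEO's platform annotation, 23521 probe sets had 1 gene symbol, 1814 several and 16010 none. Only the first were used, keeping the highest mean per gene. Genes were counted at 1.5-fold and 2-fold, with no test. Python 3.11.15, pandas 2.3.3 and statsmodels 0.14.6 were used. Counting at 2-fold was checked on simulated arrays with shifts larger than those of the members. The 1.5-fold count was not checked in this way.

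Members, lists and naming rule were chosen with earlier results of these data known. The rule named all aquaporins, up to 4 genes per list, those furthest from 0 among genes at least 1.5-fold different, genes fixed by name (not all are reported here) and the 3 genes nearest to Aqp8. For these 3, symbols of predicted genes, clones, small RNAs and pseudogenes were left out. The chromosomal neighbours, the ranges at similar signal, the gaps between probe sets and the promoter motifs were chosen after values were seen. So were Abcc2, Abcb4, Abcg2, Abcg5, Abcg8, Krt7, Sox9, Myh11, Smtn, Lmod1, Cela1, Cel, Phgr1, S100a8, S100a9, Mpo and Elane. Alternatives changed scaling, probe set choice, floor, list summary and an offset of 32 on the linear scale.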

Additional observations from a re-analysis of the deposited data

How the results depend on the processing

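No paired analysis was possible because there was 1 array a group. Leaving out a replicate was not possible either, so every setting reran the same 2 arrays and measures no spread between animals. With no replicate spread, a value was taken to have moved when it changed by 0.1 log2 units or more. Over the 7 settings run for single members, Aqp8 stayed between -1.10 and -1.04, and Aqp4 between -0.72 and -0.54. Not all of the 7 could move these 2 genes. Probe set choice could not, since each had 1 probe set, nor could raising values to the floor, above which both genes read. Centring on the median gene changed neither value. With 32 added on the linear scale, which shrinks differences of low values, Aqp4 was -0.54 and Aqp3 -0.19, and 1 member, Aqp8, remained at least 1.5-fold lower. With the floor at the 75th percentile of all values 1 remained too, since Aqp4 lay under that floor. When values under the floor were raised to it, Aqp3 was 0.0. Scaling by quantiles or loess moved no member or list median by 0.1.

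Among the lists, 147 of 161 reruns stayed within 0.1 of the median given above. Centring on the median gene, which left every list median as it was, is among the 147. Averaging probe sets and taking the first of several symbols also left most list medians exactly unchanged, so the 147 include many reruns that changed nothing. The cause of the other shifts was not tested, beyond the change in genes counted. With no floor, the 4 other aquaporins had a median of -0.13, bile duct markers 0.75, smooth muscle markers 0.72 and neutrophil and macrophage markers 0.093. With the 75th percentile floor, bile duct markers had 2.50 over 3 genes, red cell markers -0.048 over 2 and acinar markers 2.65 over 1. With the offset of 32, bile duct markers had 0.90 and smooth muscle markers 0.67. As means, hepatocyte bile flow genes were at -0.14, bile duct markers at 1.24, acinar markers at 0.85, against a median of -0.02, gut epithelium markers at 0.39 and fat cell markers at 0.026.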
